A study of Mus musculus with 6 samples.

Results

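The 10 genes described here encode the cell-surface receptors of the insulin and insulin-like growth factor (IGF) system (Insr, Igf1r and Igf2r), the receptor adaptors Irs1 and Irs2, the ligand Igf1, and the secreted IGF binding proteins Igfbp3, Igfbp4, Igfbp5 and Igfbp7. They were chosen by symbol, and each of the 10 matched a single mouse Ensembl identifier among the 55401 in the count table. The cells were ADC106, a line grown from a mouse angiosarcoma, which is a malignant tumour of vessel-lining cells, and their poly(A)-selected RNA was sequenced. One group of 3 libraries came from cells given an miR-497 mimic (genotype labelled miR-497 overexpression), and the other 3 came from cells given a mimic labelled NC (genotype labelled WT). Both mimics, which are short synthetic RNA duplexes that imitate a microRNA, were used at 12.5 nM, and RNA was taken on day 3. All libraries are from this single line, and untransfected cells were not analysed here. The labels do not say whether the 3 libraries of a group are separate cultures, so the p-values measure only the spread between these samples, which may be technical.

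Insulin and the IGFs act through the receptor tyrosine kinases Insr and Igf1r, which phosphorylate docking proteins such as Irs1 and Irs2 and so switch on PI3K, Akt and the Ras pathway. Igf2r has no kinase and removes Igf2 from the cell surface, besides carrying lysosomal enzymes, while the binding proteins hold IGFs outside the cell and either limit or prolong their action. In vessels, endothelial cells respond to insulin and IGFs and are themselves a source of several binding proteins.

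The guide strand of miR-497 finds its targets mainly by pairing of its seed, bases 2 to 8 counted from the 5′ end, with the 3′ untranslated region (UTR) of a transcript. The RefSeq table (GRCm38.p6) held at least 10 differently named mature mouse microRNAs with the same seed. Of these, 4 are shown so that the shared seed, in capitals, can be set against the target sites further on. The Mir497 and Mir195a genes lie on chromosome 11, at chr11:70234730-70234751 and chr11:70235062-70235082 on the plus strand for these arms.
miR-497a-5p: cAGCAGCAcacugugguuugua
miR-195a-5p: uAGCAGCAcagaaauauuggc
miR-16-5p: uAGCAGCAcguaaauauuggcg
miR-15a-5p: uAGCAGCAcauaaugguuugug

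Matches to the seed were searched on the transcript strand only, in the longest annotated 3′ UTR of each gene (GENCODE M21). The words were TGCTGCT (called 7mer-m8), GCTGCTA (7mer-A1), their union TGCTGCTA (8mer), and the 6mer GCTGCT inside both, which was not counted as a site. By this search 8 of the 10 genes held at least 1 site and none held an 8mer. Insr had 4 sites in a 3′ UTR of 4747 bases, Igf1r had 2 in 7267 bases, and Igf2r, Irs1, Irs2, Igf1, Igfbp3 and Igfbp4 had 1 each. Igfbp5 had only a 6mer in 4445 bases, and the 240 bases of Igfbp7 held none of these words. A 3′ UTR was annotated for 12859 of the tested genes, of which 28.1% had a site, 4.61% an 8mer and 1.24% at least 4 sites.

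UTR length matters for such counts. Of 1108 tested genes whose 3′ UTR was within 25% of the length of that of Insr, 62.4% had a site and 4.96% had 4 or more. For Igf1r, 42.2% of 389 genes of similar UTR length had at least 2 sites. For Igf2r, whose 3′ UTR is shorter at 1304 bases, 26.1% of 2348 genes had at least 1. Sites of the 3 receptors, of which 3 are from Insr, are printed because all 3 transcripts fell, those of Irs1 and Igfbp3 because both genes hold a site and rose, and the 6mer of Igfbp5 because it is the only match in the 3′ UTR of the gene with the lowest fold change. Capitals mark the match, in lower case are the bases upstream and, where it does not match, the base after it. Every one lies in the last exon of its gene on GRCm38.
Insr, chr8:3154981-3154987, minus strand, 7mer-m8: tcaaattgaccaatagcTGCTGCTt
Insr, chr8:3154329-3154335, minus strand, 7mer-A1: gggaattataccacattaGCTGCTA
Insr, chr8:3151183-3151189, minus strand, 7mer-m8: atcctttgtatcaaagtTGCTGCTt
Igf1r, chr7:68227748-68227754, plus strand, 7mer-A1: ctgtacaggaaaagaaaaGCTGCTA
Igf1r, chr7:68229951-68229957, plus strand, 7mer-m8: ctgtccacccatccgtcTGCTGCTc
Igf2r, chr17:12683360-12683366, minus strand, 7mer-m8: tgtttgaaaaaaaccctTGCTGCTt
Irs1, chr1:82235138-82235144, minus strand, 7mer-A1: tttcctttaagcacatcaGCTGCTA
Igfbp3, chr11:7207155-7207161, minus strand, 7mer-m8: cccagtacgggcttcaaTGCTGCTg
Igfbp5, chr1:72859652-72859657, minus strand, 6mer only: aaacttgtgagtctccccGCTGCTc

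**Figure D1:**
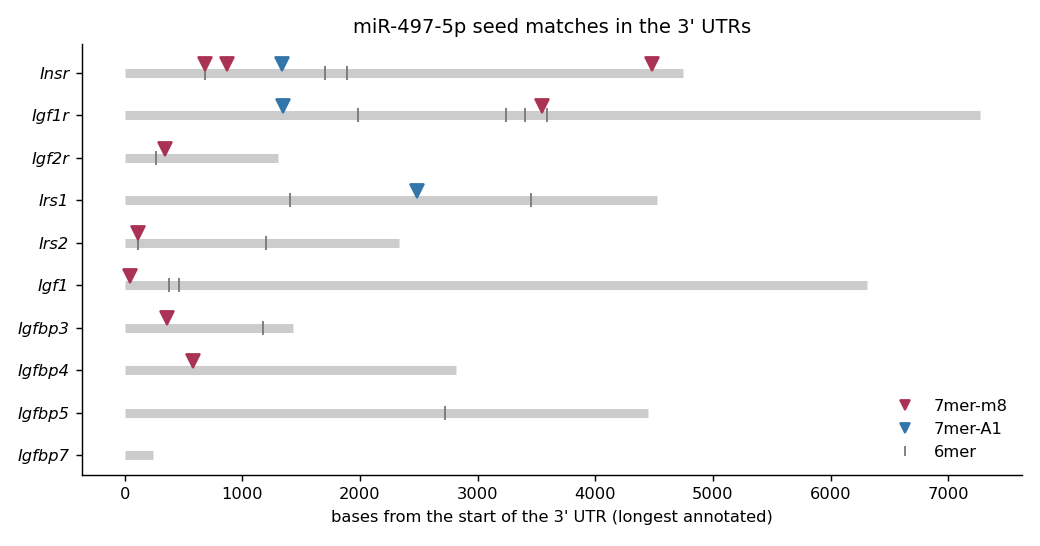
Seed matches for miR-497-5p along the longest annotated 3′ UTR of each gene, with the distance in bases from the start of the UTR on the x axis; grey bars are UTRs to scale, triangles are 7mer sites and short lines are 6mers. Insr carries 4 triangles, Igf1r 2, and Igfbp5 and Igfbp7 none.

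Library totals ran from 25777676 to 36159499 counts. Levels are given in CPM, that is, counts scaled to a common library size after TMM normalisation, and the test throughout is the quasi-likelihood test of edgeR, with Benjamini-Hochberg adjusted p-values over all 14661 genes tested (threshold 0.05, 2-sided). Endothelial identity was checked with 12 markers, and all 12 were detected, at a summed 9969 to 10679 CPM in NC and 9647 to 10141 CPM in miR-497 libraries. Within that sum 7 markers rose and 4 fell, where over all tested genes 23.8% rose and 26.0% fell. Emcn, for example, rose from a mean of 373 to 764 CPM, and Pecam1 fell from 3554 to 2471 CPM. Pecam1 had the highest mean of the 12 in NC. Vwf had the lowest by far, at 4.17 CPM in NC and 7.29 CPM with miR-497, so it adds almost nothing to the sum. Summed levels of 8 fibroblast and mural markers were 299 to 319 and 452 to 541 CPM, with Lum at 0. Only Col1a1 and Col1a2 rose among these, from means of 61.7 to 110.4 and 129 to 286 CPM, while Pdgfrb fell from 52.8 to 40.8 CPM. For 6 immune markers the sums were 8.21 to 8.60 and 15.0 to 19.8 CPM, nearly all from Cd68, with Cd3e and Itgam at 0, and for 5 epithelial markers 2.06 to 4.04 and 1.80 to 5.09 CPM. Mitochondrially encoded genes took 2.03% to 2.15% of counts in NC and 2.94% to 3.77% in miR-497 libraries. The part of these shifts in the results below was not tested.

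With the miR-497 mimic, all 3 receptors fell, Irs1 rose, and the binding proteins split into Igfbp5 and Igfbp4, which fell, and Igfbp7 and Igfbp3, which rose. In all, 5 of the 10 genes fell and 3 rose in edgeR's test, and Irs2 and Igf1 did not pass. Over all tested genes 49.8% passed, 26.0% lower and 23.8% higher. The median log2 fold change of the 10 genes was -0.27, against -0.02 over all tested genes. The 3 miR-497 values lay wholly below the 3 NC values for 5 of the genes and wholly above for 2. Over all tested genes the values were wholly below for 29.6% and wholly above for 27.8%, together 57.4%. The 10 genes were picked with results of these data known, so these counts only describe them. In RNA from whole cultures, fewer cells of a kind and less RNA per cell cannot be told apart.

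**Figure D2:**
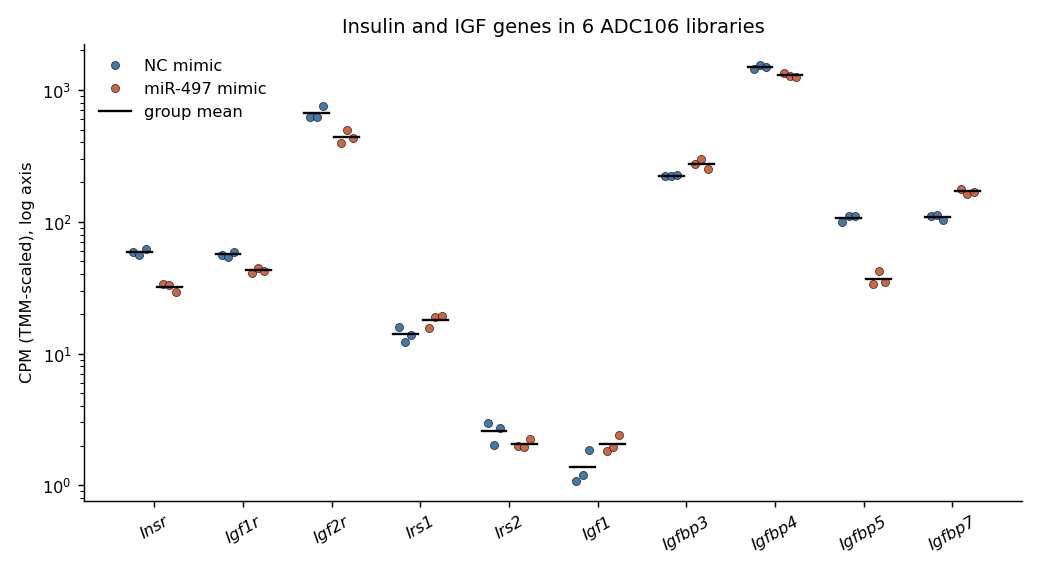
CPM of each gene in each of the 6 libraries on a log axis, with NC in blue, miR-497 in orange and the group mean as a line. The groups are apart for Insr, Igf1r, Igf2r, Igfbp3, Igfbp4, Igfbp5 and Igfbp7, and they overlap for Irs1, Irs2 and Igf1.

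Insr (ENSMUSG00000005534; chr8:3122061-3279617, minus strand), the insulin receptor, had the lowest fold change of the receptors. It stood at 59.2, 56.2 and 62.1 CPM in libraries 1 to 3 with NC and at 33.6, 33.1 and 29.4 CPM in libraries 1 to 3 with miR-497. Every miR-497 library was far below the lowest NC library. Insr fell by 45.9% (edgeR adjusted p = 4.5e-08, log2 fold change -0.89, SE 0.0744). Of all tested genes, 8.02% had a lower log2 fold change, and of the 99 other tested genes with 4 sites 19.2% did, their median being -0.26.

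Igf1r (ENSMUSG00000005533; chr7:67952827-68233668, plus strand), the kinase receptor for Igf1 and Igf2, fell as well. Its values were 56.3, 54.4 and 59.4 CPM with NC and 41.0, 44.8 and 42.2 CPM with miR-497, so the groups did not overlap. Igf1r fell by 24.7% (edgeR adjusted p = 9.1e-05, log2 fold change -0.41, SE 0.0683). Of the 758 other tested genes with 2 sites, 36.1% had a lower log2 fold change, which places Igf1r well inside their range.

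Igf2r (ENSMUSG00000023830; chr17:12682406-12769664, minus strand), the clearance receptor for Igf2, was the most abundant receptor transcript per kb of exon. It stood at 622, 623 and 753 CPM with NC and at 394, 493 and 432 CPM with miR-497. NC library 3 was above the other two, and the highest miR-497 library was still under the lowest NC library. It fell by 33.9% (edgeR adjusted p = 1.3e-05, log2 fold change -0.60, SE 0.0827), with 1 site in the 3′ UTR and 4 seed matches of the 7mer kinds in the coding sequence. Matches in the coding sequence were also found in Igf1r, Igfbp4 and Igfbp7 (2 each) and in Insr and Igfbp5 (1 each). These counts were not compared with those of genes with a coding sequence of similar length. Of the 2461 other tested genes with 1 site in the 3′ UTR, 18.2% had a lower log2 fold change than Igf2r.

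Because levels between genes can only be compared per length, CPM was divided by the kilobases of annotated exon. On that scale Insr was above Igf1r in NC cells, at 4.30 ± 0.214 against 3.38 ± 0.152 CPM per kb (SD, n = 3), and with miR-497 the values were 2.33 ± 0.165 and 2.54 ± 0.116, with overlapping libraries. The ratio of Igf1r to Insr was 0.778, 0.792 and 0.784 with NC and 0.999, 1.11 and 1.17 with miR-497. Each miR-497 library thus had relatively more Igf1r than any NC library (exact permutation test on the log2 ratio, 2-sided, p = 0.1, the smallest that 3 against 3 can give). Igf2r made up 90.3% ± 0.622 of the summed receptor level per kb with NC and 90.6% ± 0.839 with miR-497, while that sum went from 79.2 ± 8.41 to 52.1 ± 5.50 CPM per kb (SD, n = 3).

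Of the adaptors, Irs1 rose and Irs2 did not pass the test. Irs1 (ENSMUSG00000055980; chr1:82233101-82291416, minus strand), the docking protein that recruits PI3K to both kinase receptors, stood at 15.8, 12.3 and 13.9 CPM with NC and 15.6, 19.1 and 19.4 CPM with miR-497. The groups overlapped, since NC library 1 was above miR-497 library 1. The log2 fold change was 0.36 (edgeR adjusted p = 0.014, SE 0.115), a call that rested on single libraries. The edgeR adjusted p was 0.0777 without NC library 2, 0.0627 without miR-497 library 2 and 0.0538 without miR-497 library 3. An opposite-strand gene, Gm9747, covers 30.9% of the exon bases of Irs1 and had 0 counts in all libraries. Whether strand was used in counting is not given in the sources used here, so reads in those bases may have been left out.

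Irs2 (ENSMUSG00000038894; chr8:10984681-11008458, minus strand), the second docking protein of the family, had only 50 to 99 counts per library. Its values were 2.99, 2.03 and 2.70 CPM with NC and 1.99, 1.95 and 2.23 CPM with miR-497, with overlapping groups. The log2 fold change of -0.32 (edgeR adjusted p = 0.335, SE 0.262) was close to its standard error. Per kb, Irs1 exceeded Irs2 by a factor of 3.81 ± 0.338 with NC and 6.06 ± 0.677 with miR-497 (SD, n = 3; exact permutation test on the log2 ratio, p = 0.1). This ratio, too, was chosen after the values were seen.

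Igf1 (ENSMUSG00000020053; chr10:87858265-87937042, plus strand), the ligand of Igf1r, had the lowest level per kb of the 10 genes, with 36 to 73 counts per library. It stood at 1.09, 1.21 and 1.85 CPM with NC and at 1.83, 1.95 and 2.40 CPM with miR-497. The highest NC library, number 3, reached just above the lowest miR-497 library. The log2 fold change was 0.59 (edgeR adjusted p = 0.13, SE 0.312), and without NC library 3 it was 0.86 (edgeR adjusted p = 0.0464). The other ligands were scarcely seen. Ins1 and Ins2, the insulin genes of the mouse, had 0 counts in all 6 libraries, which allows up to 0.0162 CPM over the 185081574 counts in all (3 counts, counting error only). Igf2 had 2 to 21 counts, too few to be tested. A gene on the same strand, Gm49394, covers 62.8% of the exon bases of Igf2 and had 26 to 102 counts, so reads that fit both may not have been assigned to Igf2.

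Among the binding proteins, Igfbp5 (ENSMUSG00000026185; chr1:72857932-72874884, minus strand), which also binds extracellular matrix, had the lowest log2 fold change of the 10 genes. It went from 100.1, 110.0 and 109.8 CPM with NC to 33.9, 42.2 and 35.0 CPM with miR-497. The highest miR-497 library was below every NC library by a wide margin. It fell by 65.2% (edgeR adjusted p = 1.6e-10, log2 fold change -1.52, SE 0.0796). Its 3′ UTR has no 7mer or 8mer site, while its coding sequence holds 1 seed match. Of the 9241 other tested genes without a site in the 3′ UTR, 2.10% had a lower log2 fold change, and of all tested genes 2.22% did.

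Igfbp4 (ENSMUSG00000017493; chr11:99041244-99054392, plus strand), an inhibitor of IGF action that is cleaved by the protease Pappa, was the most abundant of the 10 genes per kb. It stood at 1435, 1553 and 1506 CPM with NC and at 1339, 1275 and 1256 CPM with miR-497. The groups were apart, and the level fell by 13.9% (edgeR adjusted p = 0.0047, log2 fold change -0.22, SE 0.0571). Without NC library 2 the edgeR adjusted p was 0.073, so this call rested on that library. The single site of Igfbp4 lies at chr11:99052156-99052162 on the plus strand and is missing from its shortest annotated 3′ UTR of 122 bases.

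Igfbp7 (ENSMUSG00000036256; chr5:77349240-77408041, minus strand), a relative with low affinity for IGFs that vessel cells make in quantity, rose. It stood at 111, 112 and 103 CPM with NC and at 177, 163 and 170 CPM with miR-497, so each miR-497 library was above each NC library. The log2 fold change was 0.64 (edgeR adjusted p = 5.1e-08, SE 0.0546). Of its exon bases, 7.03% lie under the opposite-strand gene Polr2b, which had 3251 to 4454 counts per library.

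Igfbp3 (ENSMUSG00000020427; chr11:7206086-7213923, minus strand), the main IGF carrier of serum, rose as well. Its NC values were almost equal at 222, 221 and 225 CPM, and its miR-497 values were 273, 301 and 252 CPM. The groups did not overlap, and the log2 fold change was 0.31 (edgeR adjusted p = 0.00046, SE 0.0607). Igfbp3 has a single site, and 82.1% of the 2461 other tested genes with 1 site had a lower log2 fold change. Its shortest annotated 3′ UTR, of 697 bases, lacks the site.

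**Figure D3:**
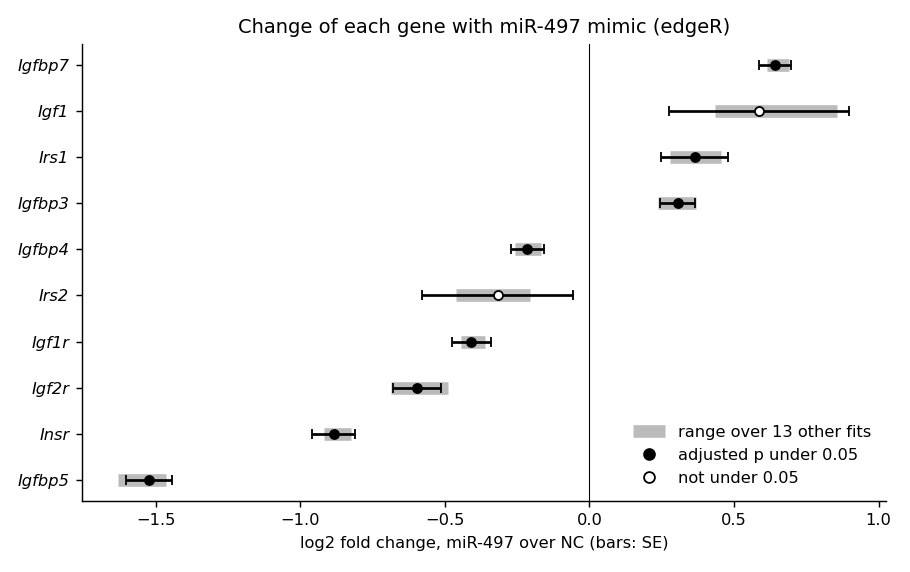
Log2 fold change of each gene (miR-497 over NC) with its standard error as the horizontal bar and, in grey, the range over 13 other fits; filled points passed the edgeR threshold. Igfbp5 is farthest left at -1.52 and Igfbp7 farthest right at 0.64, and only Irs2 and Igf1 are unfilled.

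The makeup of the binding protein family differed between the groups more plainly than its sum. The 4 transcripts together stood at 518 ± 14.3 CPM per kb with NC and 527 ± 15.6 with miR-497 (SD, n = 3), with overlapping libraries. Within the sum, the share of Igfbp4 was 65.5% ± 0.948 with NC and 55.5% ± 0.585 with miR-497, and that of Igfbp7 was 17.4% ± 0.880 and 26.7% ± 0.945. Igfbp5 held 3.43% ± 0.119 and 1.17% ± 0.150, and Igfbp3 held 13.8% ± 0.438 and 16.7% ± 1.35. The ratio of Igfbp7 to Igfbp5 per kb was 4.65 to 5.52 in NC and 19.2 to 25.9 in miR-497 libraries (exact permutation test on the log2 ratio, p = 0.1; the 4 ratios computed here and above and for Igf2r over Igf1r, chosen after the values were seen, all had an adjusted p of 0.1).

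**Figure D4:**
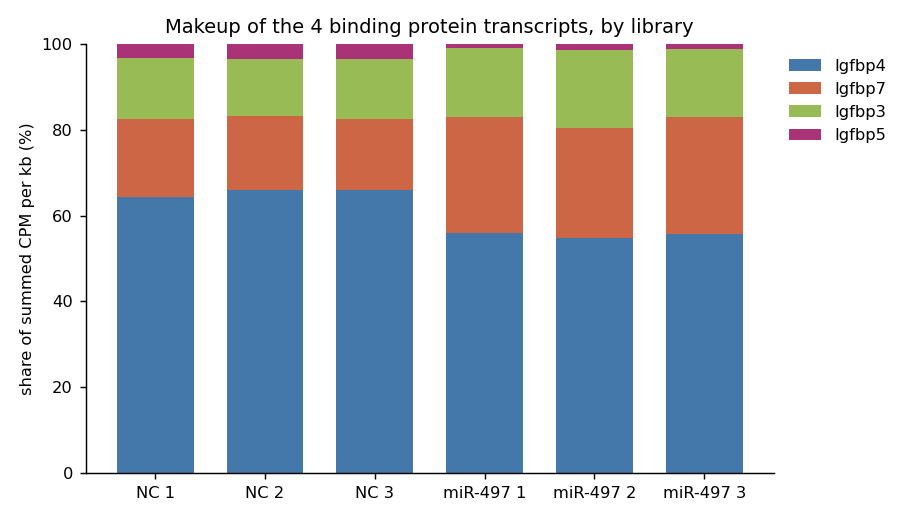
Share of each binding protein transcript in the sum of the 4, in CPM per kb, for each library. The blue Igfbp4 part is smaller and the orange Igfbp7 part larger in all 3 miR-497 libraries than in any NC library, and the thin Igfbp5 part at the top is thinner.

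In NC cells the order of levels per kb was Igfbp4 (339 ± 13.5), Igfbp7 (89.9 ± 4.18), Igf2r (71.5 ± 8.08), Igfbp3 (71.2 ± 0.575), Igfbp5 (17.8 ± 0.938), Insr, Igf1r, Irs1 (1.53 ± 0.194), Irs2 (0.407 ± 0.0779) and Igf1 (0.139 ± 0.0413; SD, n = 3). Of the neighbours in this order, only Igf2r and Igfbp3 had overlapping libraries. With miR-497, Igfbp3 (88.0 ± 7.82) stood above Igf2r (47.3 ± 5.38), and only Igf1r and Insr overlapped. When the length of the longest coding transcript was used in NC, Igfbp3 moved to rank 2, Igfbp7 to 3 and Igf2r to 4.

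A list of 60 other genes of the pathway, in 8 role groups, was looked up in the same fit. Of these, 46 had enough counts to be tested, 16 rose and 11 fell (edgeR, adjusted over all genes), against the shares of 23.8% and 26.0% over all tested genes. Those shares are also the reference for the counts by role group below. The list's median log2 fold change was 0.11. With upper-quartile scaling, 20 rose and 8 fell. Insrr, Htra1, Irs4 and Txnip were at 0 in all libraries, as were both insulin genes.

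Around the binding proteins, Igfbp6, which prefers Igf2, rose from 1.32 ± 0.516 to 2.48 ± 0.534 CPM (SD, n = 3), with an edgeR adjusted p = 0.032 and a log2 fold change of 0.89 (SE 0.326). That call was lost without any of 4 libraries (NC 1, NC 3, miR-497 1 and miR-497 3), with edgeR adjusted p-values from 0.0686 to 0.125. Igfbp1, Igfbp2, Igfals and Igfbpl1 had at most 20 counts in any library and were not tested. Of 4 tested genes for proteases of the binding proteins and their inhibitors, 2 rose and none fell. Stc1, a secreted inhibitor of Pappa, rose from 284 ± 10.4 to 328 ± 0.994 CPM (SD, n = 3), with an edgeR adjusted p = 0.0024 and a log2 fold change of 0.21. Pappa itself, named after its values were seen because it cleaves Igfbp4, had 10 to 13 counts in NC and 20 to 38 in miR-497 libraries (edgeR adjusted p = 0.0070, log2 fold change 1.57, SE 0.442).

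Of 8 tested adaptors other than Irs1 and Irs2, 2 rose and 3 fell. Gab1, a docking protein downstream of several receptor kinases, rose from 30.8 ± 2.66 to 67.9 ± 3.19 CPM (SD, n = 3), with an edgeR adjusted p = 2.5e-09 and a log2 fold change of 1.14 (SE 0.0755). Dok1, a docking protein that restrains Ras, rose by 0.30 on the log2 scale (edgeR adjusted p = 0.00051). Sh2b1, which enhances insulin receptor signalling, had a log2 fold change of -0.42 (edgeR adjusted p = 3.1e-05), and Grb2 and Sos2, which link receptors to Ras, also fell. The call of Sos2 was lost when NC library 2 or 3 or miR-497 library 1 or 3 was left out, and also with upper-quartile scaling or the replicate number as a block.

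Among 10 brakes on the receptors and adaptors, 3 rose and 3 fell. Grb10, which binds Insr and Igf1r and dampens their signal, rose from 217 ± 7.31 to 406 ± 5.32 CPM (SD, n = 3), with an edgeR adjusted p = 4e-10 and a log2 fold change of 0.905 (SE 0.0512). The phosphatase gene Ptpn1 and the insulin-degrading enzyme gene Ide rose too, though Ptpn1 was not called without NC library 1 or 3 or miR-497 library 1, nor with the replicate number as a block. The 3 that fell were Socs1, Socs2 and Socs3, which are also cytokine-induced. Socs1 had a log2 fold change of -0.55 (edgeR adjusted p = 0.027) and Socs3 of -0.43 (edgeR adjusted p = 0.0025). Socs1 was not called without NC library 2, miR-497 library 2 or miR-497 library 3, with edgeR adjusted p-values from 0.0922 to 0.133.

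The first relays pass the signal from the adaptors through PI3K to Akt. Of 10 tested first relays, 6 did not pass the test, where over all tested genes 49.8% passed. The median log2 fold change of the 10 relays was -0.004, so they did not fall as a group. Among them, Pik3r1, a regulatory subunit of PI3K, fell by 0.27 on the log2 scale (edgeR adjusted p = 0.0026). Pik3cb, a catalytic subunit, fell by 0.17 (edgeR adjusted p = 0.031), but did not pass under 8 of 13 other fits, with edgeR adjusted p-values up to 0.141.

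Foxo transcription factors are held out of the nucleus by Akt and activate a set of genes when the insulin signal is low. Of 3 tested Foxo genes, 2 rose. Foxo3 went from 28.9 ± 0.306 to 52.4 ± 3.92 CPM (SD, n = 3), with an edgeR adjusted p = 5.3e-08 and a log2 fold change of 0.86 (SE 0.0733), and Foxo1 had a log2 fold change of 0.28 (edgeR adjusted p = 0.0021). Of 10 tested Foxo target genes, 5 rose and 2 fell, where over all tested genes 23.8% rose and 26.0% fell. The largest rises in the group were those of Bcl6, a transcriptional repressor, at 0.75 (edgeR adjusted p = 1.8e-05), Ccng2, a cyclin linked to growth arrest, at 0.72 (edgeR adjusted p = 8.1e-07), and Pdk4, which limits glucose oxidation, at 0.63 (edgeR adjusted p = 0.00012) on the log2 scale. Sesn3 and Fbxo32 also rose, and Cited2 and Cdkn1b fell, of which Cited2 was not called without NC library 2 or 3 or miR-497 library 2, with upper-quartile scaling or with the replicate block. Irs2 and Insr, which are known Foxo targets too, had the log2 fold changes of -0.32 and -0.89 given above. Whether Foxo activity or insulin signalling changed was not tested.

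**Figure D5:**
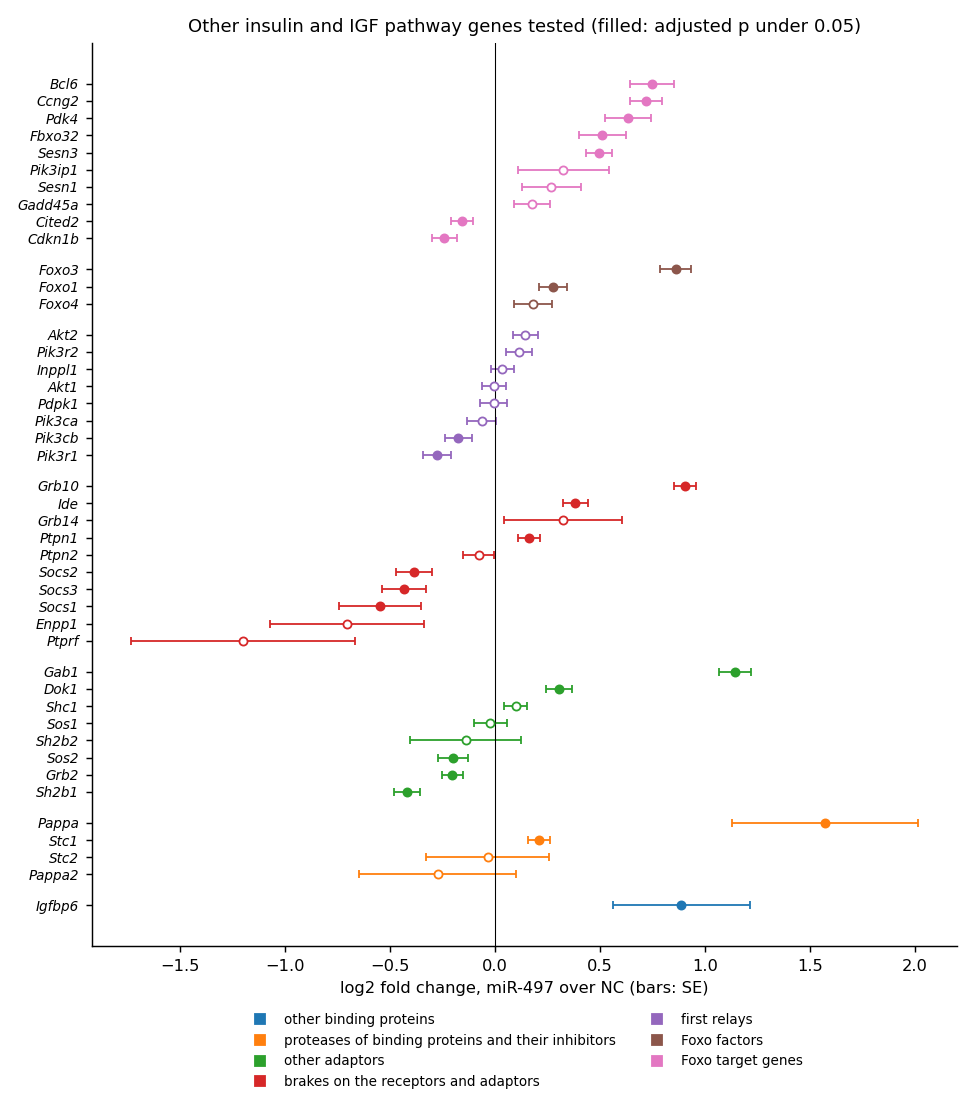
Log2 fold change (miR-497 over NC) with standard errors for 44 of the 46 tested genes of the wider pathway, grouped by role and coloured by group; filled points passed the edgeR threshold. Pappa at 1.57, Gab1 at 1.14 and Grb10 at 0.905 lie to the right, Ptprf (unfilled) at -1.20 lies farthest left, and the widest bars belong to genes with few counts.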

How the data were processed

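Reads were aligned and counted by the authors, and the submitters' processing notes name STAR 2.5.4b, featureCounts in Subread 1.6.1, edgeR 3.32.1 and the build GRCm38. The deposited values are raw counts of reads per gene. The annotation release, the strand setting and the handling of multiply aligned reads are not given in the sources used here. Symbols, lengths, UTRs and coordinates came from GENCODE M21 (GRCm38), which matched 55141 of 55401 identifiers.

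Genes were filtered with filterByExpr (minimum count 10, minimum total 15), scaled by TMM and tested with edgeR 4.0.16 (R 4.3.3) on the group alone. SE is the log2 fold change divided by the square root of F. The alternatives used DESeq2 size factors, upper-quartile scaling, no filter, a mean count of 50, DESeq2 1.42.0, limma 3.58.1 voom, the replicate number as a block, and each library left out. Members and lists were chosen with earlier results of these data known. Besides the members, up to 3 genes per role were named, those with the largest change among called genes with a mean CPM of at least 1, and those at 0. Some genes and a site that these rules would name are not reported here.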

Additional observations from a re-analysis of the deposited data

How the results depend on the processing

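The counts of genes called higher and lower stayed within 1.5 times their values under all 13 alternatives, both for the 10 genes and for the wider pathway. The same 3 higher and 5 lower genes of the 10 were called under the other scalings, filters and tests. When single libraries were left out, the 10 genes had 2 to 4 calls higher and 4 to 5 lower, the wider pathway 13 to 17 and 8 to 10, and all genes 3029 to 3350 and 3374 to 3608.

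Both groups carry replicate numbers 1 to 3. With the replicate block, the 10 genes again gave 3 higher and 5 lower, the wider pathway gave 14 and 8, and all genes gave 3177 and 3563. The deviations from the group mean of libraries with the same number correlated at -0.119, -0.0351 and -0.133 across genes, and no library correlated best with its own number.

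Of 454 pairs of named gene and alternative, 419 kept direction and side of the threshold, 34 lost the call (Irs1, Igfbp4, Igfbp6, Socs1, Pik3cb, Sos2, Ptpn1 and Cited2), 1 gained it (Igf1) and none reversed. The median over all genes moved by at most 0.0466 (log2) under any setting. With the shortest 3′ UTR the sites of Igfbp3 and Igfbp4 were gone, and with 8mers only no gene of the 10 had a site. Counts were low for Irs2 and Igf1, at 36 to 99 per library, and the part of depth in their missing calls was not tested.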

Other observations

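Both Igfbp5 and Igfbp3 have another binding protein gene as their neighbour in the genome, and in ADC106 cells that neighbour had few or no counts. Igfbp5 and Igfbp2 are neighbours on chromosome 1, 5457 bases apart with 0 protein-coding genes between them (GENCODE M21, GRCm38). Igfbp5 had 851 to 4015 counts per library and Igfbp2 had 0 to 5. Igfbp3 and Igfbp1 are neighbours on chromosome 11, 3539 bases apart, again with 0 protein-coding genes between them. Igfbp3 had 6328 to 9560 counts and Igfbp1 had 0 to 3. Igfbp2 and Igfbp1 did not pass the filter on low counts, so their changes could not be set beside the fall of Igfbp5 and the rise of Igfbp3. The genes on the other side of Igfbp5 and Igfbp3 were not looked up.

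Txnip, a Foxo target that many tissues express, was listed at 0 in all 6 libraries. An opposite-strand gene, Gm15441, covers 19.4% of its exon bases and had 6 to 41 counts. The other exon bases of Txnip overlap no annotated exon of another gene, and the reason for its 0 counts was not tested.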
